A study of Mus musculus with 3 samples.

Results

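Transitional neutrophil precursors are taken here as bone marrow cells that held transcripts of an early and of a later granule program at once. The members were the cells with at least 2000 CPM of Elane (its share of the cell's unique molecular identifiers, UMIs, scaled to a total of 1000000) and at least 10000 CPM of Camp and Ngp together. Of 26415 cells kept over 3 libraries, 1458 met both thresholds. There were 619 of 8542 kept cells in the library challenged 2 times, 284 of 8650 in the library challenged once and 555 of 9223 in the unchallenged library.

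The study is a droplet single-cell RNA sequencing experiment (10x Genomics 3′ kit, version 2) on bone marrow of C57BL/6 mice, an inbred strain, enriched for cells with the stem cell factor receptor Kit. The libraries are one from mice challenged 2 times with the bacterium E. coli, labelled 48 h, one from mice challenged once, labelled 24 h, and one from mice at steady state. All 3 groups share the strain, the tissue and the enrichment, and the label for the source is bone marrow neutrophil in each. The series' own design text speaks of 2 samples and of an agent abbreviated HIEC. Whether mice were pooled, and from which challenge the hours count, is not given in the sources used here. With 1 library per group there is no replicate error and no test between groups, so challenge, labelled time and library cannot be told apart. Intervals below are exact 95% intervals (Poisson for summed counts, Clopper-Pearson for shares), and they cover counting error only.

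Neutrophils store antimicrobial proteins in granules that are filled in order as the cell matures. Promyelocytes make the azurophil granule proteins, among them the proteases neutrophil elastase (Elane), proteinase 3 (Prtn3) and cathepsin G (Ctsg) and the peroxidase Mpo. Myelocytes then stop making these and turn to the specific granule proteins, among them the cathelicidin peptide Camp, the neutrophilic granule protein Ngp, lactoferrin (Ltf) and the siderophore binder Lcn2. The transcription factor Cebpe is needed for the specific granules to form, and Fcnb encodes ficolin B, a lectin that recognises microbial sugars and starts the complement cascade.

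The promoters of the genes that set the thresholds, and of Fcnb, are shown because the results turn on these genes. They come from RefSeq on build GRCm38.p6, 5′ to 3′ on the gene's strand, and end at the base before the annotated gene start. Capitals mark matches on either strand to C/EBP (TTNNGNAA), PU.1 (GAGGAA) and RUNX (TGTGGT) motifs, 3 families of factors active in granulocytes. Elane lies at chr10:79886247-79888215 on the plus strand, and its window is chr10:79886062-79886246. Camp lies at chr9:109847379-109849617 on the minus strand, and its window is chr9:109849618-109849706. Ngp lies at chr9:110419747-110423012 on the plus strand, and its window is chr9:110419558-110419746. Fcnb lies at chr2:28076378-28084885 on the minus strand, and its window is chr2:28084886-28085128.
Elane: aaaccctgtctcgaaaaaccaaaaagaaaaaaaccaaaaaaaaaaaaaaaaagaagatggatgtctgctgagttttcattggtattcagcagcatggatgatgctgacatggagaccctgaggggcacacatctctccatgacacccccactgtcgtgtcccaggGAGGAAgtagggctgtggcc
Camp: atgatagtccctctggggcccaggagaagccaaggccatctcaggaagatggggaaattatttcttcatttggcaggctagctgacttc
Ngp: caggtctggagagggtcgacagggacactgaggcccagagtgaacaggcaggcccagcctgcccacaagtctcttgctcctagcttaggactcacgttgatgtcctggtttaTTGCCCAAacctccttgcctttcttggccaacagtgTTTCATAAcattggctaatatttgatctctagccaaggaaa
Fcnb: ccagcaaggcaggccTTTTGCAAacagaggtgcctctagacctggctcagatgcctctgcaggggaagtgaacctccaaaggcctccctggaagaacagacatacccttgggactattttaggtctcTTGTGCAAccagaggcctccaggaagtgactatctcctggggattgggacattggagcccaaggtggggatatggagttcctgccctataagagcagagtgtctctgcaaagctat
In the 250 bases before the RefSeq start, Ngp held 3 C/EBP matches, of which 2 fall in the bases shown, Fcnb held 2 and Elane held 1 PU.1 match. Camp held none of the 3 motifs in its window, and none of these windows held a RUNX match. Over 32851 mouse promoter windows of the same length, 36.8% held a C/EBP match, 23.3% a PU.1 match and 14.0% a RUNX match. A match describes letters and not a site of binding.

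Library depth differed. The kept cells summed to 94847971 UMIs in the library challenged 2 times, 134330625 in the library challenged once and 118517639 in the unchallenged library. Members had a median of 12535 UMIs in the library challenged 2 times, 19691 in the library challenged once and 16274 in the unchallenged library. Members under 2000 UMIs numbered 7 of 619 after 2 challenges, 5 of 284 after 1 and 90 of 555 without challenge, so that shallow cells made up 16.2% of the unchallenged members, although they held only 0.907% of the summed UMIs. Any 2 libraries shared 103 to 125 cell barcodes, and the members of any 2 libraries shared 1 barcode at most.

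Markers that the rule did not use were checked first. Cebpe had a UMI in 97.9%, 98.6% and 84.9% of the members of the libraries challenged 2 times, challenged once and unchallenged. Fcnb had one in 98.5% of members after 2 challenges, 98.6% after 1 and 85.4% without challenge. Gstm1, a glutathione S-transferase, had one in 94.7% after 2 challenges, 95.8% after 1 and 84.3% without challenge. Erythroid cells, which should lack these genes and were about as deep or deeper (medians of 18390.5 UMIs after 2 challenges, 25030 after 1 and 30513.5 without challenge), gave the background. In them a Cebpe UMI was found in 8.33% after 2 challenges, 15.9% after 1 and 34.8% without challenge, and a Fcnb UMI in 9.65%, 9.79% and 39.2% in the same libraries. The markers Fcnb, Cebpe and Gstm1 were thus found in most members of each library, above that background for Cebpe and Fcnb. Elane and Camp, the other markers given for these cells, set the thresholds and check nothing here.

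Genes of other lineages were mostly low. The 8 stem and multipotent markers summed to 28.1 CPM in members challenged 2 times, 25.7 CPM in members challenged once and 35.8 CPM in unchallenged members, mostly Kit, and Procr was at 0 in the members challenged once and in the unchallenged ones. The 8 T and natural killer markers summed to 819 CPM after 2 challenges, 636 CPM after 1 and 829 CPM without challenge. The granule protein Nkg7 alone gave 804 CPM of these sums after 2 challenges, 632 CPM after 1 and 823 CPM without challenge, and the T cell gene Cd3e was at 0 in all 3 libraries. The B lineage markers summed to 46.3 CPM after 2 challenges, 195 CPM after 1 and 323 CPM without challenge. The erythroid markers summed to 51.4 CPM after 2 challenges, 48.4 CPM after 1 and 851 CPM without challenge, with haemoglobin Hbb-bs leading at 355 CPM in the unchallenged members. Cells with at least 3 UMIs and 300 CPM over another lineage's markers numbered 25 of 619 after 2 challenges, 23 of 284 after 1 and 80 of 555 without challenge. Of the 80 unchallenged ones, 38 carried B lineage markers and 30 of these had under 2000 UMIs. Monocyte markers were carried by 14 members after 2 challenges, 5 after 1 and 24 without challenge. Of these, 12, 3 and 15 were called doublets by the method described next. The 8 monocyte markers summed to 55.5 CPM in members challenged 2 times, 54.3 CPM in members challenged once and 117 CPM in unchallenged members.

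Measures of doublets and of free RNA bear on cells defined by a double program. Scrublet, which scores likeness to simulated pairs of cells, called 10.7% of members challenged 2 times, 11.6% of members challenged once and 15.5% of unchallenged members doublets. The cells with Elane alone had 2.63% to 3.25% called and those with Camp and Ngp alone 5.17% to 6.59%. As a measure of free RNA, B lineage cells, which should not make cathelicidin, held 574 CPM of Camp in the library challenged 2 times, 680 CPM in the library challenged once and 3923 CPM in the unchallenged library, at median depths of 1490 UMIs, 2905 UMIs and 3771.5 UMIs in these libraries. The rule took in 0 of 277 such B lineage cells after 2 challenges, 0 of 1415 after 1 and 24 of 1162 without challenge. A count of 0 allows a share of up to 1.32% after 2 challenges and 0.260% after 1, by the exact interval. The part of doublets and of free RNA in the counts of members was not tested. With doublet calls, other lineages and cells under 5000 UMIs all left out, 532 members stayed after 2 challenges, 237 after 1 and 374 without challenge. These cells, a check chosen after the data were seen, are called the strictest members below.

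The thresholds cut a continuum. The lowest member held 2008 CPM of Elane in the library challenged 2 times, 2051 in the library challenged once and 2006 in the unchallenged library, and the highest cell just outside held 1996 CPM after 2 challenges, 1989 CPM after 1 and 1994 CPM without challenge. For Camp and Ngp together the lowest member held 10053 CPM, with 9904 CPM just outside, after 2 challenges. These values were 10094 and 9762 CPM after 1 challenge and 10330 and 9942 CPM without challenge.

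Members were the largest share of kept cells after 2 challenges and the smallest after 1. They made up 7.25% of kept cells in the library challenged 2 times (6.71 to 7.82), 3.28% in the library challenged once (2.92 to 3.68) and 6.02% in the unchallenged library (5.54 to 6.52). The strictest members were 6.23% after 2 challenges, 2.74% after 1 and 4.06% without challenge, each as a share of all kept cells. The neighbouring stages differed between libraries as well. Cells over the Elane threshold alone, called Elane-high, numbered 2135 after 2 challenges, 1845 after 1 and 1140 without challenge. Cells over the Camp and Ngp threshold alone, called Camp/Ngp-high, numbered 1413 after 2 challenges, 1169 after 1 and 4249 without challenge. For each Elane-high cell there were 0.290 members in the library challenged 2 times, 0.154 in the library challenged once and 0.487 in the unchallenged library. For each Camp/Ngp-high cell there were 0.438 members after 2 challenges, 0.243 after 1 and 0.131 without challenge. Both challenged libraries thus held fewer members per early cell and more per later cell than the unchallenged one. With cells that carried other lineages' markers left out, Elane-high cells numbered 1625 after 2 challenges, 1288 after 1 and 652 without challenge. Members per Elane-high cell were then 0.366, 0.203 and 0.729 in the same order. Unless said otherwise, Elane-high levels below include such cells. The 8 monocyte markers summed to 308, 356 and 631 CPM in Elane-high cells in that order. The enrichment for Kit acts before these shares are formed and may differ between libraries.

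**Figure D1:**
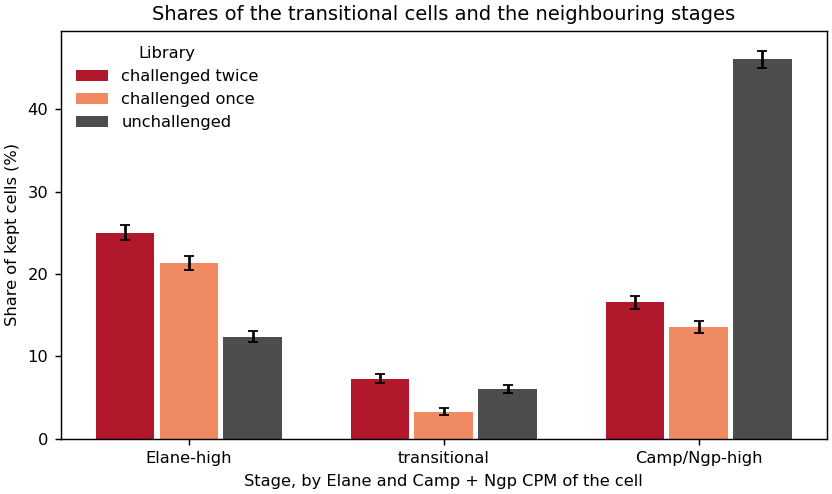
Share of kept cells (%, linear axis from 0) in the Elane-high, transitional and Camp/Ngp-high stages, with bars for the libraries challenged 2 times, challenged once and unchallenged and error bars for the exact 95% binomial interval. Transitional cells were 7.25%, 3.28% and 6.02% of kept cells, while Camp/Ngp-high cells were most frequent in the unchallenged library at 46.1%.

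Across the stages the early granule gene Mpo was lower and the later genes Ltf, Lcn2 and Cebpe were higher in the members than in Elane-high cells, each to its own degree. The stages were cut by Elane, Camp and Ngp, so those 3 genes follow from the rule and the others are given as description. In the order Elane-high, transitional, Camp/Ngp-high, Mpo summed to 4269, 2284 and 220 CPM in the library challenged 2 times, 4176, 2413 and 207 CPM in the library challenged once, and 5915, 2705 and 176 CPM in the unchallenged library. Elane itself was 5862, 5862 and 351 CPM after 2 challenges, 7163, 8151 and 323 CPM after 1, and 11177, 9280 and 310 CPM without challenge. Mpo in members lay about midway between its neighbours, while Elane, held up by its threshold, stayed near the early level.

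The later genes entered in a different order. Ltf, lactoferrin, was 26.0, 547 and 5504 CPM over the 3 stages in the library challenged 2 times, 26.2, 585 and 6114 CPM in the library challenged once and 126, 1027 and 6521 CPM in the unchallenged library. Lcn2, which starves bacteria of iron, was 165, 2272 and 9998 CPM after 2 challenges, 188, 3415 and 15710 CPM after 1, and 330, 3152 and 13930 CPM without challenge. Cebpe was 172, 450 and 403 CPM after 2 challenges, 234, 768 and 744 CPM after 1, and 217, 652 and 683 CPM without challenge. Cebpe was thus already close to its Camp/Ngp-high level in the members of all 3 libraries, while Ltf in members was at 547 to 1027 CPM, far under its later level of over 5000 CPM.

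Fcnb stood highest in the transitional cells of every library. It was 157, 867 and 594 CPM over the 3 stages in the library challenged 2 times, 85.2, 1052 and 679 CPM in the library challenged once, and 249, 2054 and 909 CPM in the unchallenged library. Its smallest log2 ratio over a neighbouring stage, 10 CPM being added to both sides as for all log2 ratios below, was 0.54, which is under the 1.5-fold limit used to call a difference. Gstm1, in contrast, followed the early genes, at 701, 442 and 79.6 CPM after 2 challenges, 492, 372 and 53.1 CPM after 1, and 797, 537 and 44.2 CPM without challenge. Csf3r, the receptor for the granulocyte growth factor, was nearly level, at 46.5, 53.0 and 41.3 CPM after 2 challenges, 37.0, 44.2 and 42.2 CPM after 1, and 34.6, 48.0 and 34.0 CPM without challenge. Gfi1, a repressor needed for granulocyte formation, was 57.2, 40.1 and 12.8 CPM after 2 challenges, 36.1, 27.4 and 14.7 CPM after 1, and 32.7, 28.2 and 12.1 CPM without challenge. The early marker Cd34 was already near the later level, at 19.5, 5.02 and 7.24 CPM after 2 challenges, 28.6, 5.55 and 12.6 CPM after 1, and 50.3, 10.1 and 9.55 CPM without challenge.

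**Figure D2:**
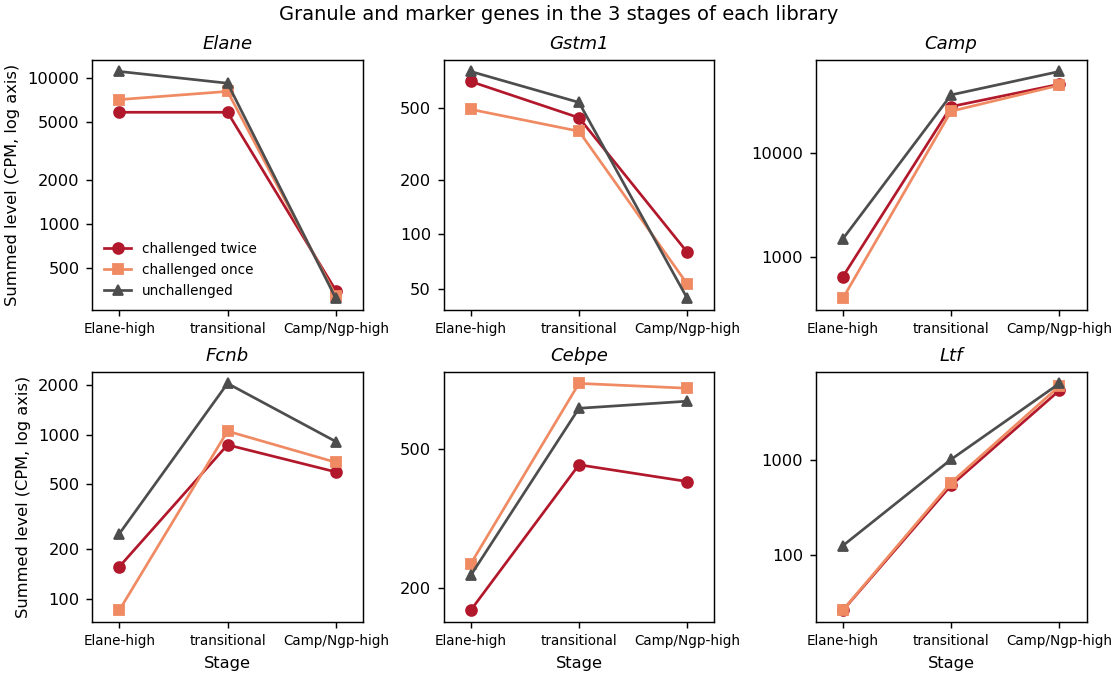
Summed level (CPM, log axis) of 6 genes in the Elane-high, transitional and Camp/Ngp-high cells, 1 line per library (challenged 2 times, challenged once, unchallenged). Fcnb peaks in transitional cells at 867, 1052 and 2054 CPM, and Cebpe is level between transitional and Camp/Ngp-high cells.

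Few genes stood above both neighbours. Of 6579 genes with enough counts, 3 were at least 1.5-fold higher in transitional cells than in both other stages in all 3 libraries (0.0456%), and 2 were at least 1.5-fold lower than both (0.0304%). The 3 were Cd63, a tetraspanin of the azurophil granule membrane, Gpx3, a secreted glutathione peroxidase, and Clec4b2, a C-type lectin receptor. Cd63 was 421, 786 and 417 CPM over the stages in the library challenged 2 times, 369, 812 and 375 CPM in the library challenged once and 522, 919 and 435 CPM in the unchallenged library. Gpx3 was 18.4, 47.8 and 16.6 CPM after 2 challenges, 12.1, 45.0 and 10.1 CPM after 1, and 16.6, 34.0 and 6.99 CPM without challenge. Clec4b2 was 3.89, 10.99 and 1.87 CPM after 2 challenges, 4.42, 21.5 and 6.18 CPM after 1, and 8.16, 31.5 and 8.06 CPM without challenge. The genes below both were Sh3glb1, a membrane-bending protein, and Ifitm1, a membrane protein that blocks virus entry. Both calls depend on the setting, since Ifitm1 lost its call in 4 of 6 alternatives and Sh3glb1 in 3 of these 4, among them the strictest members for both. Ifitm1 was 238, 69.5 and 147 CPM after 2 challenges, 261, 90.1 and 219 CPM after 1, and 53.1, 22.0 and 38.2 CPM without challenge. Without cells that carried other lineages' markers, in all stages, Gpx3 alone kept the call above and Cd63 fell under the limit, with a smallest log2 ratio of 0.26.

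The sums of the granule gene lists were ordered over the stages in the same direction in all 3 libraries. The 18 specific granule genes other than Camp and Ngp summed to 2011, 12789 and 36266 CPM over the stages in the library challenged 2 times, 1881, 16802 and 48334 CPM in the library challenged once and 2937, 19242 and 49443 CPM in the unchallenged library. The 14 azurophil granule genes other than Elane summed to 18485, 13057 and 2452 CPM after 2 challenges, 19726, 13786 and 2603 CPM after 1, and 21089, 13050 and 2155 CPM without challenge. Single azurophil genes did not all go with their sum: against Elane-high cells of the same library, 3 of 14 were at least 1.5-fold higher in members of each library, and 4 were lower after 2 challenges, 5 after 1 and 6 without challenge. Of all genes measured, 333 of 9132 were higher and 1202 lower after 2 challenges. After 1 challenge 439 of 9628 were higher and 1449 lower, and without challenge 403 of 8879 were higher and 1139 lower. The members' azurophil sums lay within 13050 to 13786 CPM, a narrower span than their specific granule sums of 12789 to 19242 CPM.

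Antigen presentation genes were ordered differently by library, at 2676, 2482 and 2206 CPM over the stages after 2 challenges, 3529, 3783 and 3857 CPM after 1, and 4029, 3489 and 2974 CPM without challenge.

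Genes of protein making were ordered like the early granule genes. The 22 genes of protein folding in the endoplasmic reticulum, where granule proteins are folded, summed to 9819, 5194 and 1880 CPM over the stages after 2 challenges, 12107, 6812 and 2638 CPM after 1, and 8631, 4241 and 1557 CPM without challenge. The 18 genes for ribosome assembly summed to 4966, 2211 and 1090 CPM after 2 challenges, 8823, 4068 and 2024 CPM after 1, and 6411, 3316 and 1628 CPM without challenge. The 6 subunits of the NADPH oxidase, the enzyme that makes superoxide, went the other way at 1417, 3427 and 4411 CPM after 2 challenges, 1392, 3647 and 4879 CPM after 1, and 1505, 3700 and 4791 CPM without challenge. In members the oxidase genes thus stood closer to the later stage, with a median log2 ratio over Elane-high cells of 1.12 after 2 challenges, 1.35 after 1 and 1.23 without challenge. Over Camp/Ngp-high cells it was -0.32 after 2 challenges, -0.35 after 1 and -0.37 without challenge.

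The members carried transcripts of S phase and of G2 and M phase genes. After each cell was thinned to 2000 UMIs, 92.5% of members challenged 2 times, 95.7% of members challenged once and 89.7% of unchallenged members had at least 2 UMIs of S phase genes. The Elane-high cells had 91.6% after 2 challenges, 96.8% after 1 and 90.7% without challenge, and the Camp/Ngp-high cells 56.8%, 55.8% and 53.3% in the same libraries. Without thinning the members' shares were 99.5% after 2 challenges, 99.3% after 1 and 92.6% without challenge. Late cells, with the late neutrophil gene Retnlg at 1000 CPM or more and Elane under 2000 CPM, served as background. In them the share was 12.5% after 2 challenges, 22.6% after 1 and 26.5% without challenge, thinned alike. The members were thus close to the Elane-high cells in S phase genes and above this background. The genes of the G2 and M phases did not follow this. Over the stages they summed to 4425, 5894 and 6159 CPM after 2 challenges, 5232, 6903 and 7851 CPM after 1, and 4352, 6542 and 7987 CPM without challenge. By this sum the members stood above the Elane-high cells and below the Camp/Ngp-high cells in each library. The median log2 ratio of these genes over Camp/Ngp-high cells was 0.01 after 2 challenges, -0.17 after 1 and -0.12 without challenge. Mki67, a protein of dividing nuclei, was 168 CPM in members challenged 2 times (160 to 177), 108 CPM in members challenged once (99.9 to 117) and 102 CPM in unchallenged members (95.8 to 109). In late cells the G2 and M genes still summed to 2139 CPM after 2 challenges, 3106 CPM after 1 and 3127 CPM without challenge. After thinning, at least 2 UMIs of them were found in 68.2%, 89.3% and 91.1% of late cells in that order. In members these shares were 99.7%, 100% and 98.9%, so that this measure set the 2 kinds of cells less apart than S phase genes did. Camp/Ngp-high cells had 90.1%, 95.9% and 96.3% in that order, below the members, which is not the order of the sums. No phase was assigned to single cells.

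Within the members, genes of one program went together. Over cells with at least 5000 UMIs (603 in the library challenged 2 times, 279 in the library challenged once and 458 in the unchallenged library), Spearman's rho between Elane and Prtn3 was 0.62 after 2 challenges, 0.75 after 1 and 0.83 without challenge. Between Camp and Ngp it was 0.67 after 2 challenges, 0.72 after 1 and 0.71 without challenge. Camp and Ltf went together less, at 0.34 after 2 challenges, 0.40 after 1 and 0.26 without challenge. Between programs rho was negative, for Elane and Ngp at -0.60 after 2 challenges, -0.62 after 1 and -0.74 without challenge. For Elane and Camp it was -0.35 after 2 challenges, -0.41 after 1 and -0.55 without challenge. Fcnb went with Camp, at 0.32 after 2 challenges, 0.56 after 1 and 0.45 without challenge. Against Elane it was nearly flat, at 0.09 after 2 challenges, -0.08 after 1 and -0.06 without challenge. These cells of 1 library share its depth and free RNA, and CPM values share a sum. The cells were also selected on Elane, Camp and Ngp, which shapes every value with these genes, so the values are descriptions.

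The members were then ordered by the ratio of Camp and Ngp to Elane in 5 ranges, with limits at 2, 4, 8 and 16. From the first range to the fifth there were 68, 149, 142, 152 and 108 cells in the library challenged 2 times, 71, 50, 53, 63 and 47 in the library challenged once, and 91, 105, 118, 126 and 115 in the unchallenged library. The share called doublets was highest in the middle range, at 16.2% after 2 challenges, 20.8% after 1 and 27.1% without challenge. Mpo, which the ratio does not use, was 3564 CPM in the first range and 680 CPM in the last after 2 challenges, 3904 and 468 CPM after 1, and 4926 and 547 CPM without challenge. Gstm1 was likewise lower in the last range, at 600 and 221 CPM at the ends after 2 challenges, 538 and 214 CPM after 1, and 896 and 230 CPM without challenge.

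Ltf was lower in the first range than in the last in all 3 libraries, and in the library challenged 2 times it was near 0 at the start. Its first range held 18.2 CPM there (10.6 to 29.1), 227 CPM in the library challenged once (204 to 251) and 333 CPM in the unchallenged library (306 to 362). Its last range held 1082 CPM after 2 challenges, 1486 CPM after 1 and 1869 CPM without challenge. As background, Ltf was 119 CPM in B lineage cells after 2 challenges, 110 CPM after 1 and 408 CPM without challenge. In erythroid cells it was 56.1, 40.6 and 178 CPM in the same order. The first range of the unchallenged library thus lay below the B lineage level of that library and above the erythroid one. Hspa5, the main chaperone of the endoplasmic reticulum, was 521 CPM in the first range and 101 CPM in the last after 2 challenges, 782 and 271 CPM after 1, and 385 and 106 CPM without challenge. Ifitm3 ran the other way, at 154 and 712 CPM after 2 challenges, 890 and 1843 CPM after 1, and 128 and 375 CPM without challenge. Cebpe changed least of these genes, at 394 to 483 CPM after 2 challenges, 701 to 915 CPM after 1 and 575 to 800 CPM without challenge, and in every range its interval in the library challenged 2 times lay below the intervals of the other two. Fcnb was lower in the first range than in the last in all 3 libraries, at 905 and 1114 CPM after 2 challenges, 789 and 1770 CPM after 1, and 1786 and 2496 CPM without challenge.

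**Figure D3:**
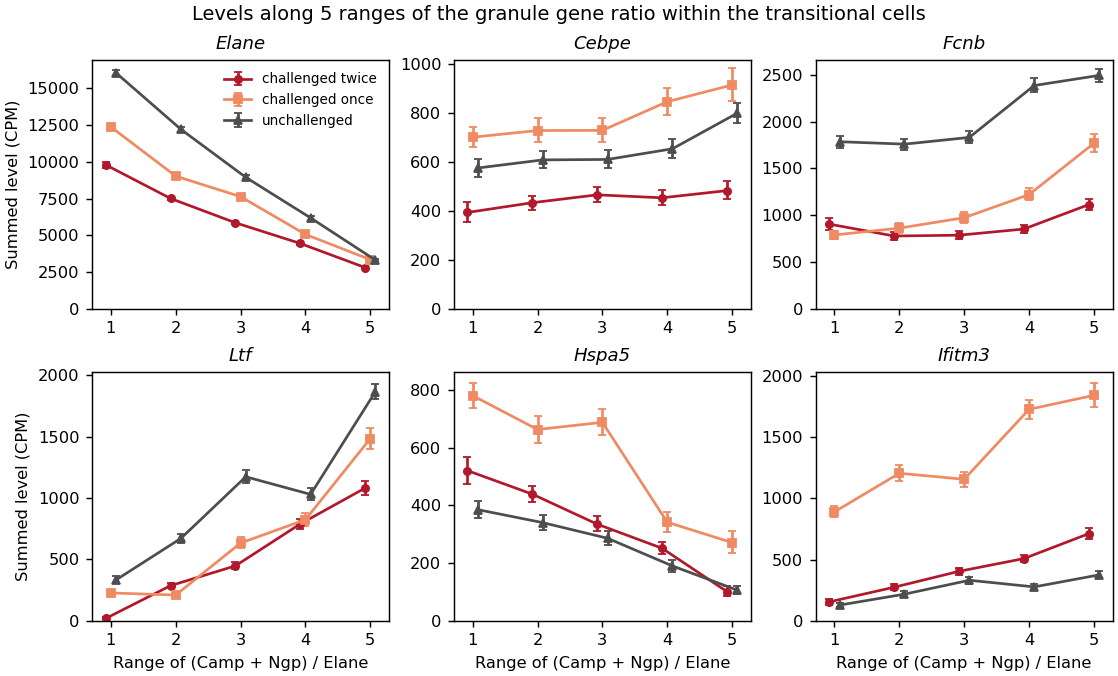
Summed level (CPM, linear axes from 0) of 6 genes in 5 ranges of the ratio of Camp and Ngp to Elane within transitional cells, 1 line per library, with exact 95% Poisson intervals. Hspa5 declines along the ranges and Ltf and Ifitm3 increase, while the decline of Elane follows from how the ranges were made, and the lines for Cebpe stay apart, with the library challenged 2 times at 394 to 483 CPM.

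The libraries were compared on the summed UMIs of their members. A gene was measured when the members of the pair of libraries together held 100 UMIs of it or more, and it was counted as higher or lower when it differed at least 1.5-fold after 10 CPM were added. A sum over members weights deep cells, so fewer cells with a transcript and less of it per cell cannot be told apart from the sum alone. Members challenged 2 times against unchallenged members had 169 of 7063 genes higher (2.39%) and 625 lower (8.85%). Members challenged once against unchallenged members had 57 of 6824 genes higher (0.835%) and 72 lower (1.06%). Members challenged 2 times against members challenged once had 139 of 6520 genes higher (2.13%) and 773 lower (11.9%). The split depends on the scaling for the library challenged 2 times. Scaling by the median of gene ratios moves its log2 ratios up by 0.22 against the unchallenged library and by 0.24 against the library challenged once, and gives 371 higher and 263 lower, and 353 higher and 310 lower. For the library challenged once against the unchallenged one the shift was -0.04, with 52 higher and 85 lower. The first and second comparisons share the unchallenged library.

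The highest ratio over unchallenged members in both challenged libraries was that of Saa3, a serum amyloid A protein of the acute phase reaction, encoded at chr7:46711998-46715700 on build GRCm38. It was 57.9 CPM in members challenged 2 times (52.9 to 63.3), 122 CPM in members challenged once (113 to 131) and 0.567 CPM in unchallenged members (0.184 to 1.32, from 5 UMIs). The fold over unchallenged members was 102 after 2 challenges (43.5 to 316) and 215 after 1 challenge (91.9 to 666). A UMI of Saa3 was found in 35.1% of members challenged 2 times, 34.5% of members challenged once and 0.721% of unchallenged members. In erythroid cells it was found in 2.63% after 2 challenges, 5.33% after 1 and 0.292% without challenge. Its promoter, chr7:46715701-46715926 on the minus strand, is shown with the same capitals because it belongs to the gene with the highest ratio over unchallenged members.
Saa3: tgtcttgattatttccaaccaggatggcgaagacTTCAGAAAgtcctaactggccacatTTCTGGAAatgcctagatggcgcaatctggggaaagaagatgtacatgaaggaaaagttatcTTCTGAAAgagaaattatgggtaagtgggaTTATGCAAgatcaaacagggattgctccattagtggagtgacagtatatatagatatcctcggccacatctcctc
Saa3 was also present before and after this stage. It was 40.7 and 15.0 CPM in Elane-high and Camp/Ngp-high cells challenged 2 times, 90.9 and 16.8 CPM in those challenged once, and 1.26 and 0.396 CPM in unchallenged ones. In both challenged libraries the transitional cells thus held the highest level of the 3 stages, but their excess over Elane-high cells was under 1.5-fold. Within the members it was 58.8 CPM in the first range of the granule ratio and 55.4 CPM in the last after 2 challenges, and 146 and 26.1 CPM after 1 challenge.

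A few more genes were higher in members of both challenged libraries. Lipg, a phospholipase of the vascular lipase family, was 33.6 CPM in members challenged 2 times, 36.3 CPM in members challenged once and 3.18 CPM in unchallenged members, at log2 ratios of 1.73 and 1.81. Wfdc17, a small secreted protein with a protease inhibitor fold, was 28.4 CPM after 2 challenges, 55.8 CPM after 1 and 2.49 CPM without challenge. Both challenged values stood well above the unchallenged one for both genes, with intervals that did not overlap. Ifitm1 was 69.5 CPM after 2 challenges, 90.1 CPM after 1 and 22.0 CPM without challenge, and its excess after 2 challenges was under 1.5-fold in 2 of 12 alternatives. Ifitm3, a relative of Ifitm1 in endosomes, was 420 CPM after 2 challenges, 1293 CPM after 1 and 267 CPM without challenge, with log2 ratios over unchallenged members of 0.63 after 2 challenges and 2.23 after 1. The excess of Ifitm3 after 2 challenges was under 1.5-fold in 2 of 12 alternatives, with a lowest log2 ratio of 0.19, while that after 1 challenge was at least 1.90 in all. Stfa1, a stefin protease inhibitor, was 46.8 CPM after 2 challenges, 13.1 CPM after 1 and 9.64 CPM without challenge, but it belongs to a family of near-identical genes among which reads may be split, as does BC100530.

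**Figure D4:**
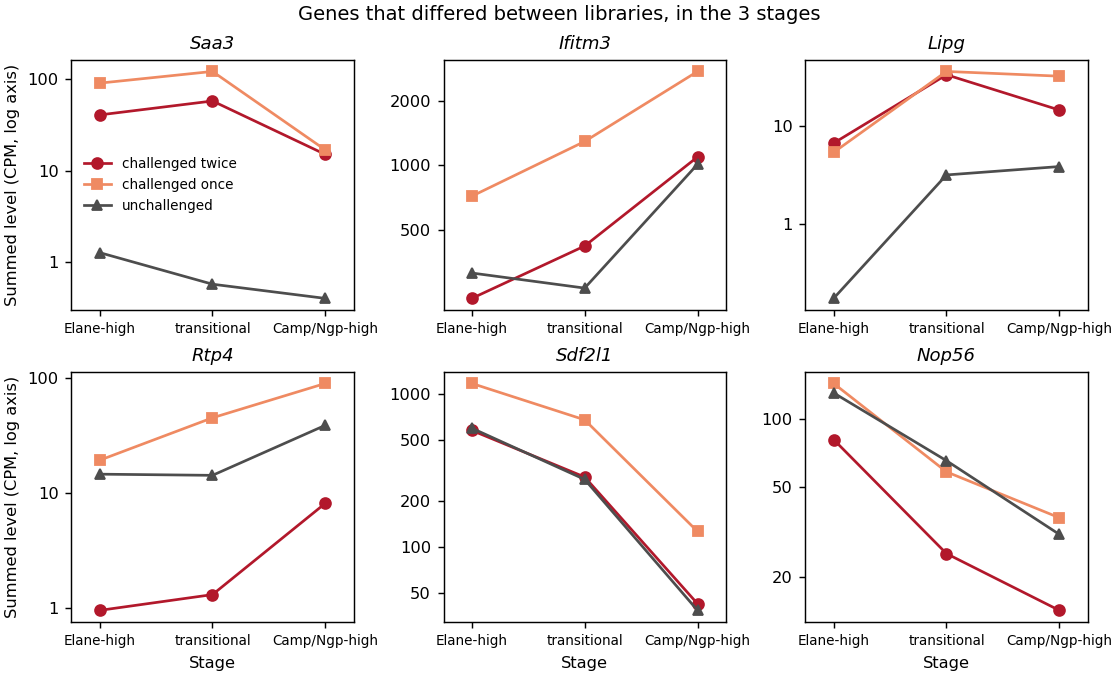
Summed level (CPM, log axis) of 6 genes in the Elane-high, transitional and Camp/Ngp-high cells, 1 line per library. Saa3 and Lipg lie lower in the unchallenged library at every stage. Sdf2l1 is higher in the library challenged once, and Rtp4 and Nop56 are lower in the library challenged 2 times.

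Of the Ifitm family and acute phase genes, 3 of 11 measured were higher and 1 lower in members challenged 2 times than in unchallenged members, against 2.39% and 8.85% of all genes. In members challenged once 4 of 11 were higher and 0 lower, against 0.835% and 1.06% of all genes. The median log2 ratios were 0.33 and 0.55, with all genes at -0.15 and 0.03, and the first of these turned to -0.12 in 1 alternative. Nfkbia, the inhibitor of NF-kappa-B that is itself an early target of it, was the lower one, at a log2 ratio of -1.08.

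Endoplasmic reticulum folding genes separated the library challenged once from the other 2. Against unchallenged members 2 of 22 were higher and 1 lower in members challenged 2 times, against 2.39% and 8.85% of all genes, with a median log2 ratio of 0.06 (-0.14 to 0.26 over the alternatives). In members challenged once 10 were higher and 0 lower, against 0.835% and 1.06% of all genes, with a median of 0.55. Sdf2l1, a cofactor of the main chaperone, was 286 CPM in members challenged 2 times (274 to 297), 675 CPM in members challenged once (655 to 697) and 275 CPM in unchallenged members (265 to 287). Hspa5 was 323 CPM after 2 challenges, 588 CPM after 1 and 260 CPM without challenge. Creld2, a disulfide isomerase, was 54.1 CPM after 2 challenges, 127 CPM after 1 and 44.6 CPM without challenge, and Manf, a secreted stress protein, was 232 CPM after 2 challenges, 565 CPM after 1 and 273 CPM without challenge. The members challenged 2 times lay near the unchallenged ones for these genes. Hsp90b1, the reticulum's own Hsp90, was an exception at 441 CPM after 2 challenges, 413 CPM after 1 and 220 CPM without challenge. Sec61b and Ssr2 of this list also passed 1.5-fold after 2 challenges, at log2 ratios of 0.81 and -0.65. The higher level after 1 challenge was also there outside the members, since Sdf2l1 was 576 CPM in the Elane-high cells of the library challenged 2 times, 1168 CPM in those of the library challenged once and 596 CPM in the unchallenged ones. In Camp/Ngp-high cells it was 42.4 CPM after 2 challenges, 126 CPM after 1 and 38.4 CPM without challenge.

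The interferon response genes that differed were lower after 2 challenges and higher after 1. Against unchallenged members 0 of 17 measured were higher and 8 lower in members challenged 2 times, against 2.39% and 8.85% of all genes, with a median log2 ratio of -0.53 against -0.15 over all genes. In members challenged once 5 of 22 were higher and 0 lower, against 0.835% and 1.06% of all genes, with a median of 0.45 against 0.03. Rtp4, a chaperone of receptors that interferon induces, was 1.31 CPM in members challenged 2 times (0.656 to 2.35), 45.2 CPM in members challenged once (40.0 to 50.9) and 14.3 CPM in unchallenged members (11.9 to 17.0). Isg15, a ubiquitin-like modifier, was 1.31 CPM after 2 challenges, 29.1 CPM after 1 and 17.2 CPM without challenge. Bst2, which tethers virus particles to the cell, was 32.3 CPM after 2 challenges, 136 CPM after 1 and 64.2 CPM without challenge. All 3 genes had the order challenged 2 times, unchallenged, challenged once from low to high. Between members challenged 2 times and members challenged once, 0 of 21 were higher and 17 lower, against 2.13% and 11.9% of all genes, with a median of -0.99 and a range over the alternatives of -1.88 to -0.85. For Bst2 the differences from unchallenged members were each under 1.5-fold in 1 alternative, at a log2 ratio of -0.54 after 2 challenges in cells thinned to 2000 UMIs and of 0.47 after 1 challenge on the mean of per-cell CPM. Rtp4 overlaps Masp1 on the opposite strand in the annotation. The antigen presentation genes had 0 of 13 higher and 4 lower after 2 challenges, where 8.85% of all genes were lower, led by the nonclassical class I gene H2-T23 at 12.1 CPM, against 64.2 CPM after 1 challenge and 55.1 CPM without challenge.

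The heat shock and ribosome assembly genes that differed were lower in members challenged 2 times than in the other libraries. Of 8 heat shock genes, 4 were lower against unchallenged members (median log2 ratio -0.60, -0.77 to -0.43 over the alternatives) and 7 against members challenged once (-1.14 to -0.80), and none was higher. Of all genes 8.85% and 11.9% were lower in these comparisons. Under the median of gene ratios 1 of the 4, Dnaja1, stayed past 1.5-fold against unchallenged members, and Hspa8 was at a log2 ratio of -0.56, short of it. The constitutive chaperone Hspa8 was 815 CPM in members challenged 2 times, 1868 CPM in members challenged once and 1404 CPM in unchallenged members. Its co-chaperone Dnaja1 was 109 CPM after 2 challenges, 311 CPM after 1 and 222 CPM without challenge. In both genes the members challenged once held the most. Of the ribosome assembly genes, 11 of 17 were lower and 0 higher against unchallenged members (median -0.70), and 14 of 16 lower and 0 higher against members challenged once (median -0.68). Nop56, of the particle that methylates ribosomal RNA, was 25.3 CPM after 2 challenges, 58.5 CPM after 1 and 65.5 CPM without challenge. Nucleolin (Ncl) was 156 CPM after 2 challenges, 323 CPM after 1 and 259 CPM without challenge. Eif5a, a translation factor rather than an assembly factor, was 550 CPM after 2 challenges, 1419 CPM after 1 and 970 CPM without challenge. Between members challenged once and unchallenged members no gene of this list passed 1.5-fold in either direction (median 0.03). The share of all genes lower in the 2 comparisons was 8.85% and 11.9%, and under the median of gene ratios the medians of this list stayed at -0.52 and -0.54.

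More nuclear genes of the respiratory chain were higher than lower in members challenged 2 times. Against unchallenged members 9 of 30 were higher and 1 lower (median 0.47), where 2.39% and 8.85% of all genes were. Against members challenged once 5 were higher and 2 lower (median 0.30), where 2.13% and 11.9% of all genes were. Atp5k, a subunit of the ATP synthase, was 863 CPM in members challenged 2 times (843 to 883), 464 CPM in members challenged once (447 to 481) and 448 CPM in unchallenged members (434 to 462). Ndufa4, a subunit of cytochrome oxidase, was 1025 CPM after 2 challenges, 677 CPM after 1 and 626 CPM without challenge. Sdhb, a subunit of succinate dehydrogenase, went the other way, at log2 ratios of -0.66 against unchallenged members and -0.77 against members challenged once. The library challenged 2 times also stood apart in some other genes, such as the histone Hist1h2ap at 1710 CPM after 2 challenges, 123 CPM after 1 and 506 CPM without challenge, which has near-identical copies, and Jund at 72.6 CPM after 2 challenges, 16.6 CPM after 1 and 20.2 CPM without challenge. The log2 ratio of Jund over unchallenged members was 0.57 on the mean of per-cell CPM, short of 1.5-fold. The mitochondrial share of UMIs in the members was 3.46% (median) in the library challenged 2 times, 2.15% in the library challenged once and 2.32% in the unchallenged library, and its part in these differences was not tested.

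**Figure D5:**
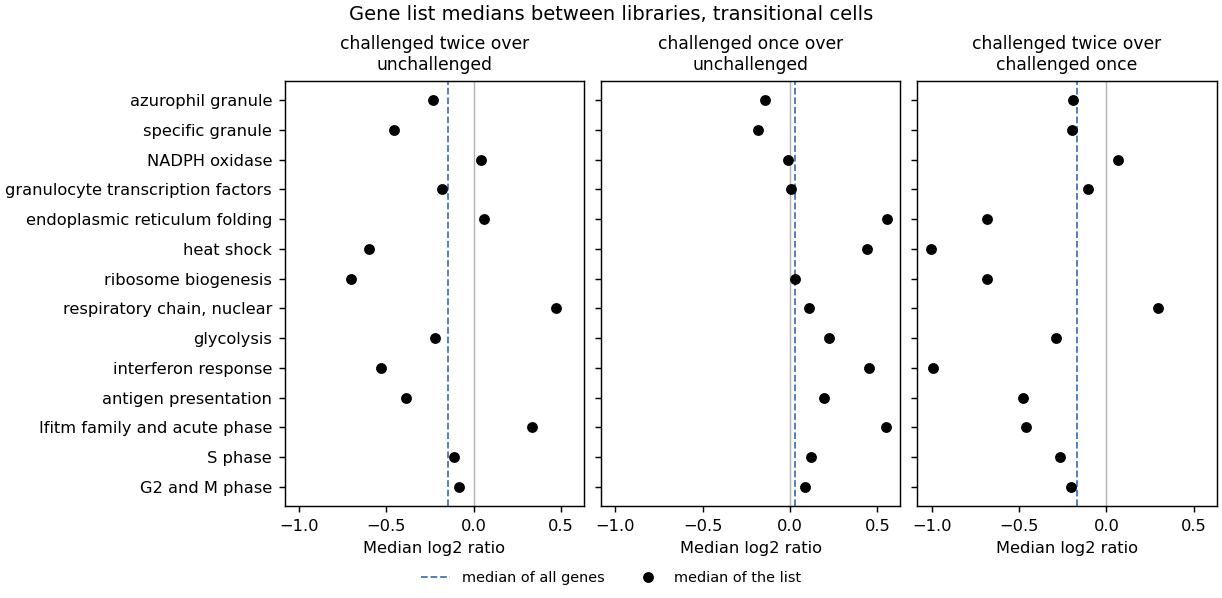
Median log2 ratio (linear axis, 10 CPM added) over the measured genes of 14 lists in transitional cells, 1 panel for each of the comparisons challenged 2 times over unchallenged, challenged once over unchallenged and challenged 2 times over challenged once. Dots are list medians and the dashed line is the median of all genes (-0.15, 0.03 and -0.17). Endoplasmic reticulum folding is at 0.55 after 1 challenge and near the line of no difference, at 0.06, after 2.

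Among the granule genes, more of the specific than of the azurophil list was lower after challenge. The azurophil list had 1 of 14 genes higher and 0 lower after 2 challenges, against 2.39% and 8.85% of all genes. None passed 1.5-fold after 1 challenge, where 0.835% of all genes were higher and 1.06% lower. The medians were -0.23 and -0.14, the second turning to 0.10 in 1 alternative. The one was Srgn, the proteoglycan that packs granule proteins, at 2065 CPM in members challenged 2 times, 996 CPM in members challenged once and 1268 CPM in unchallenged members. The specific granule list had 6 of 15 lower after 2 challenges and 4 of 15 lower after 1, where 8.85% and 1.06% of all genes were, and none higher, with medians of -0.46 and -0.19. Of the 4 after 1 challenge, the lysozyme gene Lyz2 lost its call in 4 of 12 alternatives. When 3 ranges of Camp and Ngp were weighted equally in each library, these medians were -0.28 and 0.05.

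The largest ratios among the specific granule genes were those of Olfm4, olfactomedin 4, after 2 challenges, and of the collagenase Mmp8 after 1, at log2 ratios of -1.64 and -0.99. Olfm4 was 5.85 CPM after 2 challenges, 23.2 CPM after 1 and 39.6 CPM without challenge, and few members held it, at 2.26% after 2 challenges, 3.17% after 1 and 7.39% without challenge. The difference of Mmp8 fell under 1.5-fold in the strictest members, with a log2 ratio of -0.41. Fcnb came next in both comparisons and was found in most members. It was 867 CPM in members challenged 2 times (848 to 888), 1052 CPM in members challenged once (1026 to 1078) and 2054 CPM in unchallenged members (2024 to 2084). That is 2.37 times lower after 2 challenges (2.30 to 2.43) and 1.95 times lower after 1 (1.90 to 2.01), and the ratio stayed past 1.5-fold in all 12 alternatives. Ltf was 547 CPM after 2 challenges, 585 CPM after 1 and 1027 CPM without challenge. In the strictest members the log2 ratio of Ltf after 1 challenge was -0.58, just short of 1.5-fold, against -0.80 in all members. Chil3, a chitinase-like lectin, set the library challenged 2 times apart, at 1223 CPM after 2 challenges, 2941 CPM after 1 and 2699 CPM without challenge. Camp was 27884 CPM after 2 challenges, 25149 CPM after 1 and 36111 CPM without challenge, and its log2 ratio after 2 challenges, -0.37, became 0.01 with the ranges weighted equally. Ly6g, the surface antigen of maturing neutrophils, was lower in both challenged libraries, at 23.1 CPM after 2 challenges, 17.5 CPM after 1 and 62.5 CPM without challenge.

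The members of the unchallenged library held the most Elane, at 5862 CPM in members challenged 2 times, 8151 CPM in members challenged once and 9280 CPM in unchallenged members. The log2 ratio after 2 challenges was -0.66, but it is bounded from below by the threshold and was under 1.5-fold in 2 of 12 alternatives. Mpo differed by less, at 2284 CPM after 2 challenges, 2413 CPM after 1 and 2705 CPM without challenge. Cebpe was 450 CPM in members challenged 2 times (435 to 464), 768 CPM in members challenged once (746 to 791) and 652 CPM in unchallenged members (635 to 669). Its log2 ratio between members challenged 2 times and members challenged once was -0.76, and it was -0.52 under the median of gene ratios, which is short of 1.5-fold. Spi1, the myeloid factor PU.1, had the same order at 220 CPM after 2 challenges, 401 CPM after 1 and 341 CPM without challenge. Cebpa, the factor that acts before Cebpe, was 17.8 CPM after 2 challenges, 20.0 CPM after 1 and 36.6 CPM without challenge. Of 23 measured transcription factors 6 were lower after 2 challenges and 3 after 1, where 8.85% and 1.06% of all genes were, and none was higher. Among them Irf8, a factor of the monocyte lineage, was under 1.5-fold in the strictest members in both comparisons, with log2 ratios of -0.46 after 2 challenges and -0.30 after 1, and Cebpa after 1 challenge was under it in 2 of 12 alternatives.

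Some of the largest ratios were those of genes of other lineages. The B lineage genes Ebf1 (0.836 CPM in members challenged 2 times and 42.1 CPM in unchallenged members), Vpreb1, Vpreb3 and Igll1 were among the 8 lowest after 2 challenges. The basophil proteases Prss34 and Mcpt8 and the eosinophil protein Prg2 were among the 8 lowest after 1 challenge. When members with markers of other lineages were left out, Ebf1 lost its 1.5-fold call after 2 challenges and the 3 basophil and eosinophil genes lost theirs after 1. Vpreb1, Vpreb3 and Igll1 kept theirs after 2 challenges, at smaller log2 ratios of -0.82, -0.86 and -0.82 in the strictest members. Members with markers of other lineages were 4.04% of members challenged 2 times, 8.10% of members challenged once and 14.4% of unchallenged members. They were picked by genes of the same lineages, so smaller ratios without them follow in part from that choice. Their part in these ratios was not tested. The 1.5-fold differences of Saa3, Lipg, Fcnb, Sdf2l1 and Nop56 described above kept their side of the limit in the strictest members, with log2 ratios of 2.73 for Saa3, 1.83 for Lipg, -1.32 for Fcnb and -1.28 for Nop56 after 2 challenges, and of 1.33 for Sdf2l1 after 1.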

How the data were processed

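The deposited files hold raw UMI counts per gene and cell barcode, which the authors made with Cell Ranger 3.0.0 on mouse build mm10, per the submitters' processing notes; further filters of theirs are not given in the sources used here. A barcode was kept from 500 UMIs and 300 genes upward if mitochondrial genes took no more than 10% (Python 3.11.15, numpy 2.4.6, scipy 1.17.1). The members, gene lists and thresholds were chosen with earlier results of these data known, and the 32 lists hold 488 genes, all in the tables. UMIs were summed per stage and library and divided by the stage's total, as CPM. Log2 ratios add 10 CPM, and a difference counts from 1.5-fold for genes that reach 100 UMIs in the 2 libraries together. With 1 library per group no test between groups was made. A single deep sum can still give narrow counting intervals, since molecules of 1 library say nothing of the spread between mice. Doublets were called by Scrublet in scanpy 1.11.5, each library alone, and left in. Genes named are the 5 markers and Ngp, the 8 with the largest ratio in each direction per comparison, up to 4 largest members per list described, genes past 1.5-fold against both neighbouring stages, and a fixed set of granulocyte genes; ribosomal, mitochondrial, immunoglobulin, haemoglobin and predicted genes were passed over. Other members of these lists shown for their role, such as Hsp90b1, Ndufa4 and Ncl, follow the same list order in 1 of the comparisons. The summing and the intervals were tested on simulated data with known changes. Promoters are RefSeq windows on GRCm38.p6, and gene positions are from the annotation on GRCm38.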

Additional observations from a re-analysis of the deposited data

Results flagged for a closer look

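A few genes went opposite ways in the members and in a neighbouring stage, by at least 1.5-fold each way, between the library challenged 2 times and the unchallenged library; the differences were not tested. The log2 ratio of the haemoglobin gene Hba-a1 was -3.83 in transitional cells and 1.42 in Camp/Ngp-high cells. That of Hbb-bs was -3.65 in transitional cells, 1.55 in Elane-high cells and 2.14 in Camp/Ngp-high cells. That of Hbb-bt was -3.41 in transitional cells and 1.48 in Camp/Ngp-high cells. The eosinophil granule gene Prg2 had -1.15 in transitional cells, 1.73 in Elane-high cells and 2.15 in Camp/Ngp-high cells. In the strictest members the log2 ratio was -0.16 for Hbb-bs, which is no longer a 1.5-fold difference, -0.71 for Hba-a1 and -0.76 for Hbb-bt. For Prg2 it turned to between 0.03 and 0.32 in 4 alternatives, so that the opposite direction was not seen there. Cells that carried erythroid markers numbered 2 of 619 members challenged 2 times and 10 of 555 unchallenged members, and cells with eosinophil markers 4 in each. The strictest members leave such cells out by genes of the same lineages, so smaller ratios there follow in part from that choice.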

How the results depend on the processing

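No paired analysis was possible because each group is 1 library. Shares of members (of kept cells, libraries challenged 2 times, challenged once and unchallenged) moved with the thresholds: 5.03%, 2.60% and 4.30% with Elane at 4000 CPM, 8.82%, 4.10% and 8.46% at 1000 CPM, 5.46%, 2.46% and 4.96% with Camp and Ngp at 20000 CPM, and 8.51%, 4.08% and 6.73% at 5000 CPM. They were 14.9%, 8.61% and 9.34% of granule-positive cells. By that measure the libraries challenged once and unchallenged changed order in 6 of 10 alternatives, with 10.6% and 8.97% in the strictest members. With at least 5000 UMIs the shares were 9.10% after 2 challenges and 4.26% after 1. Such planned filters on cells cut the total as well as the members. Without called doublets the shares were 6.67% after 2 challenges and 5.33% unchallenged. The unchallenged share was 5.32% with at least 1000 UMIs and 500 genes, and 6.71% with no cell filter. In alternatives chosen after seeing the data only members were left out, and all kept cells stayed the total. There the unchallenged share was 5.15% without cells of other lineages. The shares were 6.23%, 2.74% and 4.06% when doublets and cells under 5000 UMIs went too. The order of the libraries by share of kept cells, challenged 2 times first and challenged once last, stayed in each of these. Counts of genes moved most. For members challenged 2 times over unchallenged, genes higher were 371 under the median of gene ratios, 424 with 1 CPM added and 441 thinned to 2000 UMIs, and genes lower 263, 1491 and 1033, and 1070 from the mean of per-cell CPM. For members challenged once over unchallenged, genes higher were 160 with 1 CPM added and 400 thinned, and genes lower 198, 374 and, from the mean of per-cell CPM, 278. For members challenged 2 times over challenged once, genes higher were 353 under the median of gene ratios, 354 with 1 CPM added and 427 thinned, and genes lower 310 and 1492 under the first and second of these. Genes above and below both neighbouring stages were 12 and 10 with 1 CPM added, 6 and 1 from the mean of per-cell CPM, 7 and 4 without doublets and 1 and 1 without other lineages, and 1 was below in the strictest members. Over unchallenged members, the log2 ratio of Prg2 after 2 challenges turned to 0.172 when thinned, 0.323 at 5000 UMIs, 0.0284 without other lineages and 0.111 in the strictest members, and that of Vcam1 to -0.262 from the mean of per-cell CPM. The cause of these changes was not tested. Depth limits genes under about 10 CPM, and the precision across mice is unknown with 1 library per group.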
